A study of Homo sapiens with 6 samples.

Results

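Translation initiation and elongation factors are the proteins that load messenger RNA onto the ribosome, place the first tRNA and move the ribosome along the coding sequence. Their genes were taken by name: protein-coding genes of the EIF1 to EIF6, EEF1 and EEF2 families, without the eIF2-alpha kinases and the eIF4E-binding proteins, plus TPT1, PABPC1 and PABPC4. The rule found 65 genes among the 58395 in the deposited table. It used no measured value.

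The values come from 6 RNA sequencing libraries of M14, an established human melanoma cell line. All cells were grown without attachment as melanospheres, floating spheres of melanoma cells, which were then taken apart mechanically and labelled with an antibody to CD20, the B-cell surface protein encoded by MS4A1. Flow sorting gave 3 CD20-positive and 3 CD20-negative samples, and no other treatment separates the groups. RNA was purified on RNeasy columns, and polyadenylated RNA was sequenced from Illumina TruSeq libraries on a NovaSeq. Both groups stem from 1 line, and the labels number the replicates 1 to 3 without saying that they came from separate cultures. Any p-value therefore reflects sample-to-sample spread alone, and that spread may be technical.

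Fragments on annotated genes, recovered from the deposited values, came to 15651153 to 17915978 per library. MS4A1 was at 0.225, 0.263 and 0.403 FPKM (fragments per kilobase of exon, divided by a library size) in the CD20-negative libraries. In the CD20-positive ones it was at 1.24, 0.966 and 1.28 FPKM, so the groups did not overlap (exact permutation p = 0.1, the minimum for 3 against 3). The library size implied by the values was not the fragment total. It ranged from 0.864 times that total in CD20-positive replicate 1 to 1.10 times in CD20-negative replicate 3. Of the melanocytic markers, SOX10, MLANA, TYR, TYRP1 and DCT were at or near 0 in each library, MITF averaged 2.12 FPKM and PMEL averaged 14.96 FPKM in CD20-negative and 26.1 FPKM in CD20-positive libraries. The epithelial keratins KRT8 and KRT18 averaged 212 and 187 FPKM, while the epithelial genes EPCAM and CDH1 averaged 3.77 and 0.0695 FPKM. Of the B-cell markers, CD79A, CD79B, CD37 and PTPRC averaged from 0.00314 FPKM for PTPRC to 2.87 FPKM for CD37.

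Initiation starts when eIF4E, eIF4G and the helicase eIF4A bind the cap of a messenger RNA, while eIF2 brings the initiator tRNA to the small ribosomal subunit together with eIF1, eIF1A, eIF3 and eIF5. The subunit scans to a start codon, eIF5B joins the large subunit, and eEF1A then delivers each further tRNA, eEF1B recharges eEF1A with GTP, and eEF2 moves the ribosome by 1 codon. Several of these genes, like those for the ribosomal proteins, make terminal oligopyrimidine (TOP) messenger RNAs, which begin with a C followed by a run of C and T and whose translation depends on the kinase mTOR and the cap-binding protein LARP1. This class is known for control at the level of translation, which RNA levels do not measure.

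The starts of some of these genes are shown because the TOP class divides the set. Each line is 30 bases of the RefSeq reference (GRCh38.p14), 5′ to 3′ on the gene's own strand, with 15 bases before the annotated start and 15 from it. Capitals mark a C within 5 bases of the start with at least 4 C or T directly after it. The first 6 are the starts of reported TOP genes that have such a tract. EIF3I and EIF1AX, which have no such tract within 5 bases of the start, are genes that were lower in CD20-positive libraries in the paired fit described later. Factors not reported as TOP had such a tract at 31.7% of 60 starts, so these windows do not show how often it occurs.
EEF1A1: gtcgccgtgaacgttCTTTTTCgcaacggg
EEF1B2: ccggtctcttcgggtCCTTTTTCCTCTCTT
TPT1: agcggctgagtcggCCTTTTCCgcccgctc
EEF2: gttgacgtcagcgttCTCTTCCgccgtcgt
EIF3F: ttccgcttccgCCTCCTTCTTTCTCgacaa
EIF4B: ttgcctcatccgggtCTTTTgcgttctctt
EIF3I: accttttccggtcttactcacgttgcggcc
EIF1AX: gcaaagagtcgcggcgccatttgctgccgc

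These windows lie at chr6:73521018-73521047 (EEF1A1, minus strand), chr2:206159880-206159909 (EEF1B2, plus strand, the downstream of its annotated starts), chr13:45341169-45341198 (TPT1, minus), chr19:3985449-3985478 (EEF2, minus), chr11:7987322-7987351 (EIF3F, plus), chr12:53006441-53006470 (EIF4B, plus), chr1:32222392-32222421 (EIF3I, plus) and chrX:20141824-20141853 (EIF1AX, minus). In EEF1A1, EEF1B2, EEF2 and EIF4B the tract begins at the annotated start base itself. Annotated starts were found for 51 of the 65 genes, 68 starts in all, and 36.8% of them had such a tract, against 19.7% of the 35116 starts of all genes in the table. Among the reported TOP genes 6 of 8 starts had it (75%), and among ribosomal protein genes 68.6% of 86 starts did. Within the set it was present at 2 of 5 starts of the genes that passed the paired fit and at 38.9% of 36 starts of the other tested genes. Those 5 starts belong to EEF1B2 (both of its starts), TPT1, EIF3I and EIF1AX. The set of starts used here held none for EIF3E, EIF3H and EIF3L, which also passed, or for the reported TOP genes EEF1D and PABPC1. The shares given here therefore leave these genes out. A match to this pattern is a description of the reference sequence and not a mapped start in these cells.

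The factors differed in level over 5 orders of magnitude. EEF1A1, which encodes the main tRNA-delivering elongation factor, averaged 1454 FPKM over the 6 libraries and EEF2 averaged 743 FPKM. EIF5A, which helps the ribosome through difficult peptide bonds, followed at 258 FPKM. EEF1A2 (142 FPKM), PABPC1 (138 FPKM), EIF2S3 (128 FPKM), EIF4B (127 FPKM), EIF4H (117 FPKM) and EIF4G2 (101 FPKM) came next, and neighbours within these 6 differed by less than their spread over libraries. These 9 genes were the ones at a mean of 100 FPKM or more. EEF1A1 and EEF2 together made up 45.9, 53.1 and 53.6% of the set's summed FPKM in the CD20-negative libraries and 47.9, 46.5 and 45.4% in the CD20-positive libraries, ranges that overlap.

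At the low end, 18 genes averaged from 1 to under 10 FPKM and 8 averaged under 1 FPKM. EEF1G, the gamma subunit of eEF1B, is listed at 0 in each of the 6 libraries, and 99.9% of its exon bases lie in the exons of another annotated gene, AP002990.1, which had 2.03 to 2.53 FPKM. EIF3K, a small subunit of eIF3, is listed at 0, 0 and 0.0542 FPKM in CD20-negative and at 0.0237, 0 and 0.0226 FPKM in CD20-positive libraries, with no annotated exon overlap. EEF1D, the delta subunit of eEF1B, averaged 0.550 FPKM and shares 34.0% of its exon bases with other genes. EIF4A1, the main eIF4A helicase, averaged 4.04 FPKM and shares 48.6% of its exon bases, in part with the read-through gene SENP3-EIF4A1. Whether overlap set these low values was not tested, and use of strand in counting is not given in the sources used here. The level of EIF1AY, a Y-linked gene, is not reported. The kinase EEF2K (0.540 FPKM) and the cap-binding proteins EIF4E1B (0.0127 FPKM) and EIF4E3 (0.677 FPKM) were also low.

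A mean of at least 10 FPKM was required for testing, which 39 of the 65 genes passed. EIF3CL (10.3 FPKM) and EIF4G3 (10.9 FPKM) were just inside this limit, and EIF2B5 (9.46 FPKM) and EIF2D (7.93 FPKM) just outside. The lowest fragment number of a tested factor in a library was 80, for EEF1B2. Of the 26 genes not tested, 18 had a lower and 6 a higher mean in the CD20-positive group.

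The summed level and the median change of the factors were lower in CD20-positive melanosphere cells. The largest differences were in the elongation factor genes EEF1B2 and EEF1A1, in TPT1 and in 4 subunits of eIF3, while the median of the cap-binding group was near 0. The summed level was 4837, 5139 and 5141 FPKM in the CD20-negative libraries and 4713, 3664 and 3344 FPKM in the CD20-positive libraries. The groups did not overlap, but the CD20-positive library of replicate 1 was close to the CD20-negative ones. The positive-to-negative ratio was 0.974 in replicate 1, 0.713 in replicate 2 and 0.650 in replicate 3. Without EEF1A1 and EEF2 the sums were 2615, 2410 and 2387 FPKM against 2456, 1959 and 1825 FPKM, and the groups overlapped. In bulk samples fewer cells with a transcript and less of it per cell cannot be told apart.

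Changes are given as differences of log2(FPKM + 1), CD20-positive minus CD20-negative, a scale that shrinks differences of weakly expressed genes. The median over the 39 tested factors was -0.24, against -0.01 over all 4503 tested genes, and 31 of the 39 were below 0, against 51.3% of all tested genes. In 19 of the 39 the CD20-positive library was lower in all 3 replicate numbers, which held for 24.8% of all tested genes, and in 1 (EIF1AD) it was higher in all 3, against 24.6%. The groups did not overlap for 7 factors that were lower (EEF1A1, EEF1B2, TPT1, EIF3E, EIF3H, EIF3L and EIF1), against a background of 7.22% of all tested genes, and for 1 that was higher (EIF1AD), against 12.3%; in either direction the background was 19.6%.

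With limma and no block, 0 of the 39 factors passed an adjusted p of 0.05, and the background was equally empty, with 1 gene of 4503 called (0.0222%) and none of them lower. At an unadjusted p under 0.05 there were 7 factors, against 13.5% of all tested genes. voom on the recovered fragments also called 0. The deviations of same-numbered libraries from their group means correlated at 0.73, 0.25 and 0.65 in replicates 1, 2 and 3, and the numbers were taken as pairs on that ground. Crossing replicates 2 and 3 gave 0.59 and 0.54, so how these libraries pair is uncertain, and the calls with the block refer to the pairs as labelled. limma with the replicate number as a block called 7 of the 39 (17.9%), all lower: EEF1B2, TPT1, EIF3E, EIF3H, EIF3I, EIF3L and EIF1AX. The background in that fit was 11.3% of all tested genes called lower and 9.93% called higher, 21.2% in all. In that fit 93.4% of all tested genes had a spread taken from genes of similar level and none from their own residuals, so its p-values rest on a pooled spread. Without both libraries of replicate 3 the block fit called 1 factor, EEF1B2, and 0.555% of all tested genes as lower. Without both libraries of replicate 1 it called 15 factors, all lower, against 16.7% of all tested genes. Without the CD20-positive library of replicate 1 alone, the fit with no block called 10, all lower, against 12.2% of all tested genes.

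**Figure D1:**
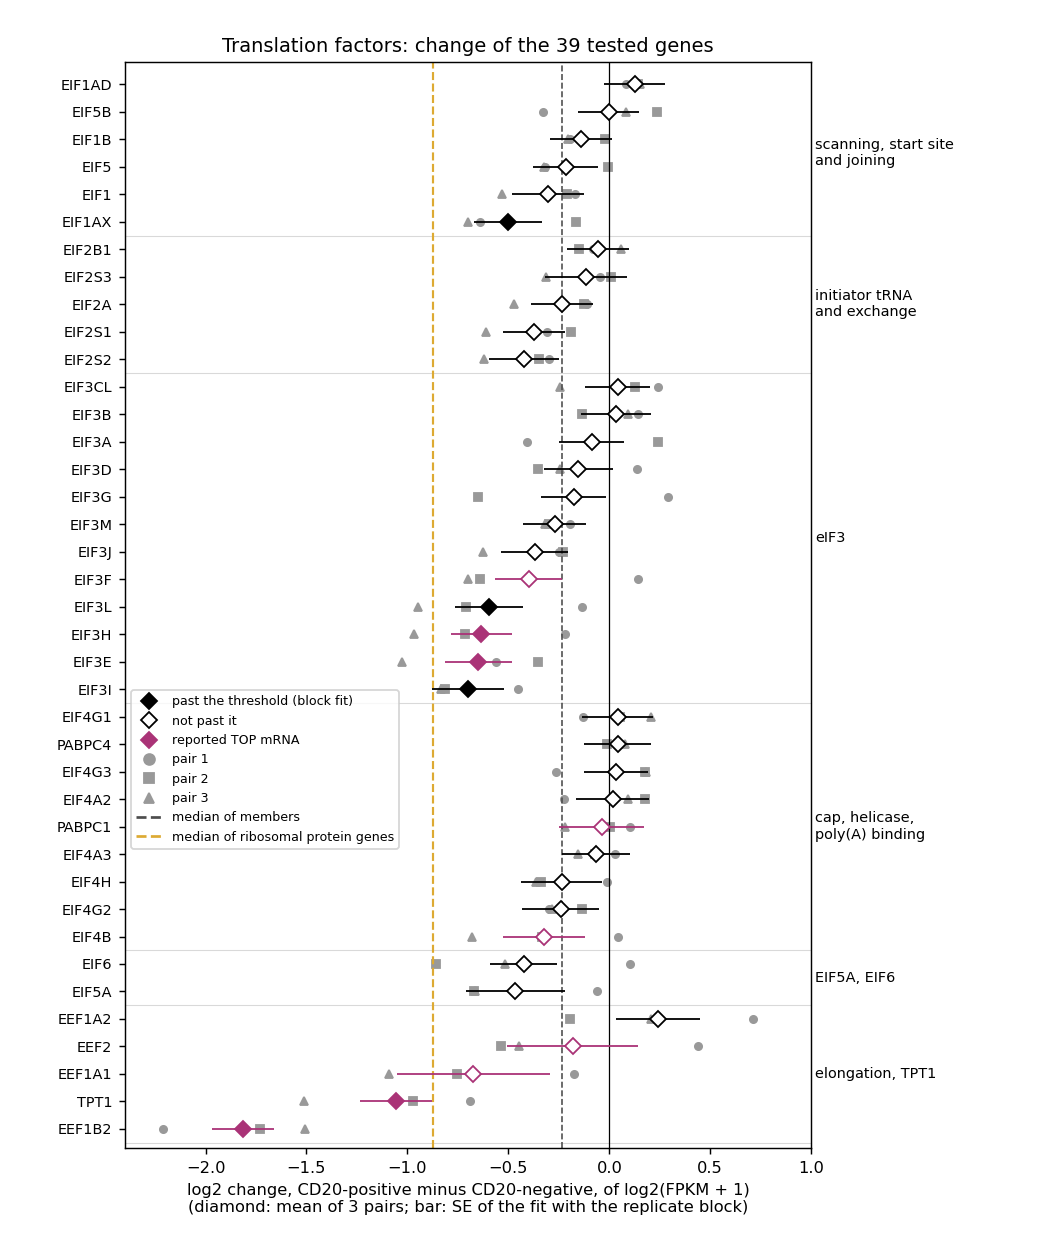
Each row is 1 of the 39 tested factors, grouped by role, and the x axis is the log2 change of log2(FPKM + 1), CD20-positive minus CD20-negative; diamonds are the mean of the 3 pairs with the SE of the block fit, filled where the adjusted p passed 0.05, and grey marks are the single pairs. The 7 filled diamonds lie left of 0, while the cap-binding group sits around 0 with a median of -0.04.

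Among the elongation factors and their partners, 5 of 14 genes were tested, with a median change of -0.67. Of these 5, 2 passed the block fit, both lower, against 11.3% of all tested genes called lower. EEF1A1 was at 1612, 1824 and 1891 FPKM in the CD20-negative libraries and 1429, 1081 and 886 FPKM in the CD20-positive libraries. The groups did not overlap, and the gap was smallest in replicate 1, at -0.17, against -0.75 in replicate 2 and -1.09 in replicate 3. The mean difference was -0.67 (SE 0.26) and did not pass (limma adjusted p = 0.326 with no block and 0.202 with the block), and it was -1.57 with quantile normalisation.

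EEF1B2, the subunit of eEF1B that exchanges GDP for GTP on eEF1A, gave the largest difference of the set. It was at 36.3, 33.1 and 9.34 FPKM in the CD20-negative libraries and 7.05, 9.28 and 2.64 FPKM in the CD20-positive libraries. Both libraries of replicate 3 were low for their group, and the lowest CD20-negative value lay just above the highest CD20-positive one. The group means were 26.2 ± 14.7 and 6.33 ± 3.38 FPKM (SD, n = 3), a ratio of 0.241. Within replicate numbers the differences were -2.21, -1.73 and -1.51, and EEF1B2 fell by 1.82 in the block fit (SE 0.16, limma adjusted p = 2.84e-28), against an adjusted p of 0.256 with no block. As for most genes in the block fit, that SE and p rest on a spread pooled over genes. They do not measure the spread of the EEF1B2 pairs themselves. With a pseudocount of 10 the difference was -1.07.

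EEF1B2 has 8 annotated pseudogenes, copies that can take reads from the gene, so the division of its fragments is uncertain. The highest of them, EEF1B2P3, averaged 67.2 FPKM, above the gene itself at 16.3 FPKM. Of all fragments on EEF1B2 and these copies, the gene held 47.7, 52.2 and 21.7% in the CD20-negative libraries and 18.3, 33.4 and 14.01% in the CD20-positive libraries, so the share itself varied between libraries of 1 group. Counted together, gene and copies had 146, 121 and 82.3 fragments per 1000000 in CD20-negative and 73.6, 53.2 and 36.1 in CD20-positive libraries. These joint values did not overlap either, and their log2 differences within replicate numbers were -0.99, -1.19 and -1.19, smaller than for the gene alone.

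**Figure D2:**
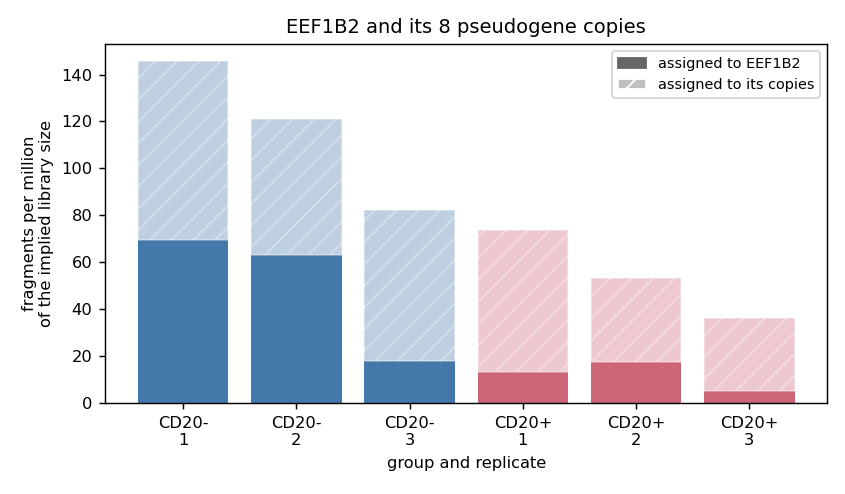
Bars give fragments per 1000000 of the library size implied by the deposited values for EEF1B2 (solid) and its 8 pseudogene copies (hatched) in the 3 CD20-negative and 3 CD20-positive libraries. The solid part is a larger share in replicates 1 and 2 of CD20-negative cells (47.7 and 52.2%) than in any other library, and the whole bars of the CD20-positive group are all lower than those of the CD20-negative group.

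TPT1 encodes the translationally controlled tumour protein, which binds the eEF1A and eEF1B proteins. It was at 106, 93.5 and 109 FPKM in CD20-negative and 65.3, 47.2 and 37.6 FPKM in CD20-positive libraries. The groups were well apart, and the CD20-positive library of replicate 1 was the closest to the other group. TPT1 fell by 1.06 in the block fit (SE 0.18, limma adjusted p = 1.93e-07), and its adjusted p of 0.136 with no block was the smallest of the set.

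EEF2 and EEF1A2, the other tested elongation genes, had pairs in both directions. Of this role's genes below the 10 FPKM limit, EEF1E1 and EEF1AKMT1 were lower with no overlap, at ratios of 0.610 and 0.548. EEF2K and EEF1D had ratios of 0.949 and 0.988. With the filter at 1 FPKM, the block fit called EEF1E1 and EEF2KMT lower. EEF2, the translocase, was at 609, 905 and 863 FPKM in CD20-negative and 828, 623 and 632 FPKM in CD20-positive libraries. The order was reversed in replicate 1, where the CD20-positive library was higher by 0.44, and the mean difference of -0.18 did not pass (limma adjusted p = 0.766). EEF1A2, a tissue-restricted paralogue of EEF1A1 normally found in neurons and muscle, was at 139, 125 and 116 FPKM in CD20-negative and 228, 109 and 134 FPKM in CD20-positive libraries. Its groups overlapped, the difference of 0.24 did not pass (limma adjusted p = 0.715), and it was -0.06 without the CD20-positive library of replicate 1, -0.05 after correction for length and GC content and -0.27 with libraries scaled to their FPKM totals.

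**Figure D3:**
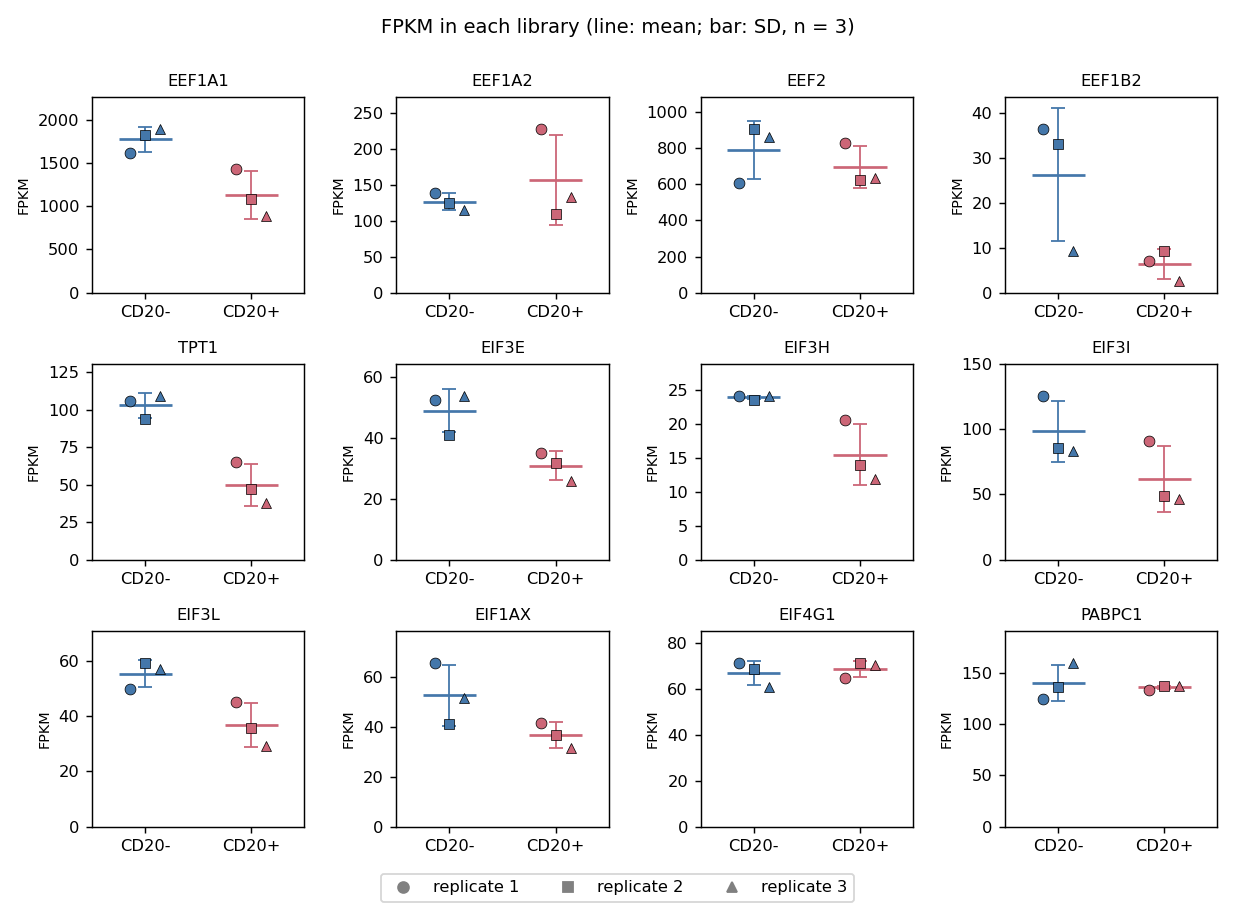
Each panel shows 1 factor, with FPKM from 0 on the y axis, the 3 libraries of each group as points by replicate number, a line at the mean and a bar of 1 SD. EEF1A1, EEF1B2, TPT1, EIF3E, EIF3H and EIF3L have no overlap between groups, and EIF4G1 and PABPC1 overlap between groups.

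The eIF3 complex holds the small subunit and its partners together, and 11 of its 13 subunits were tested. Together the subunits summed to 545, 516 and 505 FPKM in CD20-negative and 490, 385 and 353 FPKM in CD20-positive libraries, which did not overlap. The median change of the tested subunits was -0.37, 10 of 11 were below 0 (51.3% of all tested genes were), and 4 passed the block fit, all lower, against the background of 11.3%: EIF3E, EIF3H, EIF3I and EIF3L. The counted list of eIF3 genes with the EIF3C copy EIF3CL had 12 tested genes, a median of -0.32 and the same 4 calls.

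EIF3I, a small beta-propeller subunit, was at 125, 86.0 and 83.6 FPKM in CD20-negative and 91.3, 48.5 and 46.5 FPKM in CD20-positive libraries. The CD20-positive library of replicate 1 lay within the CD20-negative range, so the groups overlapped, while each pair was lower. EIF3I fell by 0.70 (SE 0.18, limma adjusted p = 0.00133 with the block and 0.372 without it), and its difference was -0.44 after correction for length and GC content.

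EIF3E, a subunit of the structural core of the complex, was at 52.4, 40.9 and 53.7 FPKM against 35.2, 31.8 and 25.8 FPKM. EIF3E fell by 0.65 in the block fit (limma adjusted p = 0.00131). EIF3H, which pairs with EIF3F, was at 24.1, 23.7 and 24.1 FPKM against 20.6, 14.04 and 11.9 FPKM. The CD20-negative values were nearly equal and the CD20-positive ones spread downwards, and EIF3H fell by 0.63 (limma adjusted p = 0.000547 with the block), a call lost after correction for length and GC content, where the difference was -0.59. EIF3L was at 49.9, 59.4 and 57.4 FPKM against 45.3, 35.9 and 29.3 FPKM and fell by 0.60 (limma adjusted p = 0.00412 with the block). Its groups did not overlap, and 51.8% of its exon bases are shared with AL022311.1 and ANKRD54.

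The other subunits did not pass. EIF3F was at 43.9, 49.9 and 46.7 FPKM against 48.6, 31.7 and 28.3 FPKM, a difference of -0.40 with the order reversed in replicate 1 (limma adjusted p = 0.0695 with the block). EIF3J and EIF3M differed by -0.37 and -0.27 and were lower in all 3 pairs. The large scaffold subunits EIF3A and EIF3B differed by -0.09 and 0.03, EIF3D, which can itself bind a cap, by -0.15 and EIF3G by -0.18. EIF3C (6.40 FPKM) and its near-identical copy EIF3CL (10.3 FPKM) cannot be separated with confidence, and only EIF3CL was tested, at 0.04. The subunits thus did not share 1 size of difference.

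**Figure D4:**
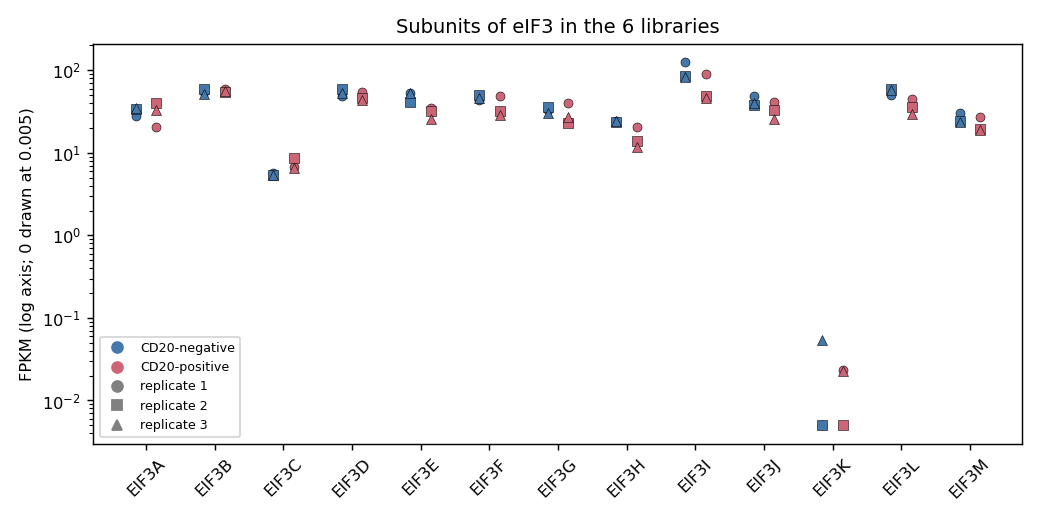
FPKM on a log axis of the 13 eIF3 subunits, with CD20-negative libraries left and CD20-positive libraries right of each name and the marker shape giving the replicate number; values of 0 are drawn at 0.005. EIF3E, EIF3H and EIF3L are the subunits with no overlap at lower values in CD20-positive cells, and EIF3K, at 0.0542 FPKM or less, sits far below the rest.

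Factors for scanning, start codon choice and subunit joining had 6 of 7 genes tested, with a median change of -0.18. The block fit made 1 call, lower, against 11.3% of all tested genes called lower. EIF1AX encodes eIF1A, which opens the small subunit for scanning, and was at 65.6, 41.2 and 51.5 FPKM in CD20-negative and 41.8, 36.6 and 31.4 FPKM in CD20-positive libraries. The groups overlapped by a narrow margin, since the CD20-positive library of replicate 1 stood just above the CD20-negative library of replicate 2. EIF1AX fell by 0.50 (SE 0.17, limma adjusted p = 0.0190 with the block and 0.362 without it). EIF1AX shares fragments with 2 pseudogenes, of which EIF1AXP1 averaged 48.2 FPKM, and the gene held 90.6% of the joint fragments on average.

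EIF1, the start codon gatekeeper, was at 83.6, 76.7 and 78.7 FPKM against 74.3, 66.3 and 54.2 FPKM. The groups did not overlap but lay close together, and the difference of -0.30 did not pass (limma adjusted p = 0.231 with the block). EIF1AD, a protein with an eIF1A-like domain, was at 14.8, 14.97 and 14.3 FPKM against 15.7, 16.6 and 16.0 FPKM. It was the 1 tested factor with no overlap at higher values, by 0.13 (limma adjusted p = 0.614 with the block), and the sign turned when libraries were scaled to the fragment total (-0.05) or the FPKM total (-0.36). EIF5, the GTPase activator of eIF2, differed by -0.22, EIF1B by -0.14 (0.19 after correction for length and GC content) and EIF5B by 0.00.

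The genes for initiator tRNA delivery and for guanine nucleotide exchange had 5 of 11 tested, a median of -0.24 and 0 calls. The block fit called 21.2% of all tested genes in either direction. EIF2S2, the beta subunit of eIF2, was at 83.0, 64.3 and 66.0 FPKM against 67.2, 50.3 and 42.5 FPKM, lower in each pair and by 0.42 in the mean (limma adjusted p = 0.0649 with the block), or by 0.20 after correction for length and GC content. EIF2S1, the alpha subunit whose phosphorylation halts initiation under stress, was at 28.7, 20.04 and 22.1 FPKM against 23.0, 17.4 and 14.1 FPKM, a difference of -0.37 (limma adjusted p = 0.0661 with the block). The gamma subunit EIF2S3, at 131, 127 and 141 FPKM against 127, 128 and 113 FPKM, differed by -0.12, which became 0.02 after correction for length and GC content and 0.03 with quantile normalisation. EIF2A, an alternative carrier of initiator tRNA, differed by -0.24. EIF2B1 was the 1 tested subunit of eIF2B, the exchange factor of eIF2, with a difference of -0.06.

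The cap-binding, helicase and poly(A)-binding genes had 9 of 15 tested, with a median change of -0.04, 5 of 9 below 0 and 0 calls with or without the block. Of all tested genes, 51.3% were below 0 and 21.2% were called in either direction with the block. EIF4G1, the scaffold that bridges the cap and the poly(A) tail, was at 71.2, 68.7 and 60.9 FPKM in CD20-negative and 64.8, 71.2 and 70.5 FPKM in CD20-positive libraries. PABPC1, the main cytoplasmic poly(A)-binding protein and a reported TOP gene, was at 124, 136 and 159 FPKM against 134, 137 and 137 FPKM. Both genes overlapped fully between groups. PABPC1 differed by -0.04 with an SE of 0.17 in the fit with no block, and EIF4G1 by 0.04 with an SE of 0.15.

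EIF4B, which stimulates the helicase and is also a reported TOP gene, was at 113, 154 and 160 FPKM against 116, 122 and 99.4 FPKM. Replicate 1 had no difference (0.04) and the others did (-0.33 and -0.68), with a mean of -0.32 (limma adjusted p = 0.269 with the block). EIF4H and EIF4G2 differed by -0.24 each, and EIF4G2, an eIF4G-like protein that does not bind eIF4E, was lower in all 3 pairs. EIF4A2, EIF4A3, EIF4G3 and PABPC4 differed by 0.02, -0.07, 0.03 and 0.04, sizes at which the sign depended on the scaling or on single libraries. EIF4E, the cap-binding protein itself, was not tested and was at 4.54, 2.72 and 3.13 FPKM against 3.58, 2.54 and 1.92 FPKM.

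EIF5A was at 346, 287 and 248 FPKM against 331, 180 and 156 FPKM. EIF6, which keeps the large subunit from joining too early, was at 55.8, 54.9 and 43.7 FPKM against 59.9, 29.9 and 30.2 FPKM. In both genes the CD20-positive library of replicate 1 stood with the CD20-negative libraries and the other CD20-positive libraries were lower. The differences were -0.47 and -0.42 and did not pass with the block (limma adjusted p = 0.166 and 0.0530).

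The ratio between paralogues within a library does not depend on scaling between libraries, and 7 pairs were compared. The ratios were not corrected for length or GC content, and EEF1A2 and EEF1A1 differ in GC content (0.642 and 0.455). The ratio of EEF1A2 to EEF1A1 was 0.0861, 0.0687 and 0.0612 in CD20-negative and 0.159, 0.101 and 0.151 in CD20-positive libraries. The groups did not overlap, and the log2 difference was 0.92 (two-sided exact permutation test, p = 0.1, the smallest possible, adjusted p = 0.7 over the 7 pairs). The same ratio was higher in the CD20-positive library of each replicate number, by 0.89, 0.56 and 1.30. The other pairs overlapped: the log2 difference was -0.29 for EIF4G2 to EIF4G1 (exact permutation p = 0.3), and between -0.01 and 0.09 for EIF4A2 to EIF4A1, EIF4G3 to EIF4G1, EIF4E2 to EIF4E, EIF5A2 to EIF5A and PABPC4 to PABPC1 (exact permutation p = 0.6 to 1), with an adjusted p of 1 for each.

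The reported TOP genes of the set number 11, of which 9 were tested. All 9 were below 0 with a median of -0.63, and 4 passed the block fit (EEF1B2, TPT1, EIF3E and EIF3H). The 30 other tested factors had a median of -0.17, with 3 calls (EIF3I, EIF3L and EIF1AX), a share near the 11.3% of all tested genes. The difference between the groups was not tested, and EIF3I at -0.70 lay below 7 of the 9 TOP genes. The reported TOP genes did not move as 1 block, since EEF2 and PABPC1 differed by -0.18 and -0.04. The 75 tested cytosolic ribosomal protein genes, the main TOP class, had a median of -0.87, and 70 of them were called lower in the block fit.

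The size of the difference depended on the replicate number. The median over the 39 factors was -0.14, -0.19 and -0.32 in replicates 1, 2 and 3, over the reported TOP genes -0.17, -0.64 and -0.97, and over the ribosomal protein genes -0.39, -1.03 and -1.22. Of the 3 pairs, replicate 1 had the highest log2 change, a smaller fall or a rise, for 22 of the 39 factors. The same held for 70 of the 75 ribosomal protein genes. This share was not counted over all tested genes, whose median was 0.07, -0.06 and -0.02 in replicates 1, 2 and 3. The 13 mitochondrially encoded protein genes went the other way: they took 3.85, 4.94 and 4.27% of fragments in CD20-negative and 18.1, 9.98 and 14.3% in CD20-positive libraries, the most in replicate 1. The factors took 2.63, 2.81 and 2.93% against 2.04, 1.93 and 1.66%. The part of the mitochondrial share in the factors' result was not tested.

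**Figure D5:**
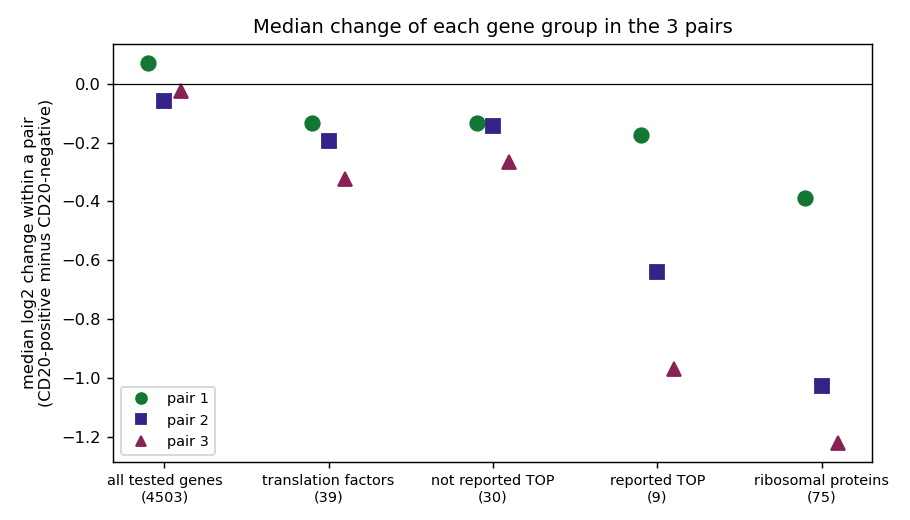
The y axis is the median log2 change within a replicate number (CD20-positive minus CD20-negative) for each gene group on the x axis, with 1 marker per pair. All tested genes lie near 0 (0.07, -0.06 and -0.02), the factors not reported as TOP between -0.13 and -0.27, and the reported TOP factors and ribosomal proteins lie lower in pairs 2 and 3 than in pair 1.

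The scale between libraries mattered for the counts. With libraries scaled to their FPKM totals, which the mitochondrial transcripts enter, the median of all tested genes moved to -0.50 and that of the factors to -0.73. With this scaling and no block, 28 of 39 factors were called lower, against 40% of all tested genes. With libraries scaled to the fragment total, the medians were -0.18 and -0.41 and no factor was called with no block. The median of the factors was below that of all genes under each of these scalings.

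Regulators and partners of the factors were taken from a list of 38 genes, of which 23 were tested. Their median change was -0.13, and the block fit called 4 lower and 1 higher, a share of the list near the 21.2% of all tested genes called in either direction. PAIP2, an inhibitor of poly(A)-binding protein, fell by 0.56, at 28.6, 20.4 and 26.2 FPKM against 21.1, 15.9 and 13.4 FPKM. EIF4EBP1, the mTOR-controlled inhibitor of eIF4E, also fell by 0.56, but its pairs differed: it was at 66.4, 74.9 and 57.1 FPKM against 75.8, 34.2 and 33.3 FPKM, higher in the CD20-positive library of replicate 1. MCTS1, which acts in re-initiation, fell by 0.43, and RPS6, a target of the S6 kinases that is also among the ribosomal protein genes, fell by 0.82. RPTOR, the mTOR complex subunit that binds its substrates, rose by 0.39, at 13.5, 12.95 and 12.4 FPKM against 19.4, 15.8 and 16.8 FPKM (limma adjusted p = 0.0480 with the block and 0.292 without it). ATF4, the transcription factor induced when eIF2 is phosphorylated, was at 89.1, 89.7 and 87.4 FPKM against 87.8, 75.9 and 79.5 FPKM, a difference of -0.13 (limma adjusted p = 0.668 with the block). LARP1, the repressor of TOP messenger RNAs, differed by -0.04.

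Gene length and GC content ran with the change across all tested genes, and less with length within the set. Spearman's rho of the change with exon length was 0.34 over the 4503 genes and 0.22 over the 39 factors, and with GC content 0.33 and 0.32, values across genes that share the same 6 libraries. The shorter 20 and the longer 19 factors had medians of -0.24 and -0.22.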

How the data were processed

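The deposited table holds 1 value per Ensembl gene and library, with no unit in its header. From the values, the authors deposited FPKM: multiplied by GENCODE release 29 exon lengths, 98.2 to 98.6% of low values (up to 20 reads) were whole multiples of 1 step (tolerance 0.02 reads). The tools named per the submitters' processing notes are DESeq2, featureCounts 1.5.0 and HISAT2, with the build GRCh38 (hg38). No settings are named there, and whether counting used strand is not given in the sources used here. In all 58275 identifiers matched GENCODE release 29 and 120 did not.

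Tests were run with limma 3.58.1 (R 4.3.3) on log2(FPKM + 1), for genes whose mean reached 10 FPKM (trend and robust prior, two-sided, Benjamini-Hochberg over all 4503 tested genes, threshold 0.05), CD20-positive minus CD20-negative. A second fit had the replicate number as a block. Deviations from the group means of same-numbered libraries correlated at 0.73, 0.25 and 0.65 over the tested genes, so the numbers were taken to pair the samples, although crossing replicates 2 and 3 gave 0.59 (CD20-negative 2 with CD20-positive 3) and 0.54 (CD20-negative 3 with CD20-positive 2). The fits were also run on simulated data in which same-numbered libraries were true pairs. That run does not bear on the uncertain pairing of replicates 2 and 3. Fragments were recovered from the FPKM steps. The genes and lists were chosen with earlier results of these data known; the reported TOP list and roles come from general knowledge. Named in each role were the gene with the highest mean, up to 4 tested genes with the smallest p in the block fit, each tested gene whose groups did not overlap, and both genes of each paralogue pair; the other genes given with a value were chosen after their values were seen. Alternatives covered the filter, the pseudocount, scaling, length and GC content, the prior, voom and left-out libraries. Sequences are from RefSeq. A marker gene is not reported here.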

Additional observations from a re-analysis of the deposited data

How the results depend on the processing

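The main fit had no replicate block and called 1 gene and 0 of 39 factors, with a median change of the factors of -0.24. With the replicate block it called 954 genes and 7 factors; the block was used beside the main fit because same-numbered libraries correlated, with the pairing of replicates 2 and 3 uncertain. Every factor called under any setting run here was lower in CD20-positive cells. With the block, the called genes and factors were 767 and 7 with the filter at 1 FPKM (5 of the same factors), 269 and 3 at 50 FPKM, 0 and 0 with no filter, 952 and 7 at a pseudocount of 0.1, 970 and 7 at a pseudocount of 10, 2452 and 32 scaled to the FPKM total, 1443 and 20 scaled to the fragment total, 1040 and 11 with quantile normalisation, 747 and 6 after correction for length and GC content, 859 and 9 with a plain prior and 966 and 9 with voom. With no block they were 43 and 1 (TPT1) at 50 FPKM, 1834 and 28 scaled to the FPKM total, 15 and 1 (EEF1A1) with quantile normalisation, and 0 genes with no filter, after correction for length and GC content, and with voom. The median of the factors was -0.73 scaled to the FPKM total and -0.41 scaled to the fragment total, with or without the block.

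Leaving out 1 library, called genes ranged from 0 to 792, called factors from 0 to 10 and the factors' median from -0.35 to -0.14; the highest counts were without the CD20-positive library of replicate 1. A lone library was never left in a group. Leaving out both libraries of a replicate number with no block, genes ranged from 0 to 1632, factors from 0 to 18 and the median from -0.31 to -0.16, and with the block genes ranged from 64 to 1212 (887 without replicate 2) and factors from 1 to 15. In each case replicate 1 gave the highest count, and with the block replicate 3 gave the lowest.

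Of 28 tested named factors, 18 kept their direction under every setting run and 10 turned at least once; the 7 called factors, EEF1A1 and EIF1 are among the 18. Signs that turned, with or without the block, were as follows. Scaled to the FPKM total, EEF1A2 was at -0.27, EIF1AD at -0.36, EIF4A2 at -0.50, EIF4G1 at -0.47, EIF4G3 at -0.44 and PABPC4 at -0.46, and scaled to the fragment total EIF1AD was at -0.049, EIF4A2 at -0.17, and EIF4G1, EIF4G3 and PABPC4 at -0.14. After correction for length and GC content, EEF1A2 was at -0.049, EIF1B at 0.19, EIF2S3 at 0.023, EIF4G1 at -0.14, EIF4G3 at -0.0088 and PABPC4 at -0.0091. With quantile normalisation EIF2S3 was at 0.030 and PABPC1 at 0.14. Without replicate 2 EIF4A2 was at -0.065 and EIF4G3 at -0.040, and without replicate 3 EIF4A2 was at -0.022, EIF4G1 at -0.041, EIF4G3 at -0.044 and PABPC1 at 0.054. Leaving out single libraries, EEF1A2 ranged from -0.061 to 0.46, EIF4A2 from -0.076 to 0.16, EIF4A3 from -0.18 to 0.023, EIF4G1 from -0.023 to 0.087, EIF4G3 from -0.059 to 0.21 and PABPC1 from -0.12 to 0.059. Among paralogue ratios, EIF4E2 to EIF4E was -0.036 with a pseudocount of 1, and leaving out single libraries turned EIF4A2 to EIF4A1 (-0.15 to 0.14), EIF4E2 to EIF4E (-0.060 to 0.090), EIF4G3 to EIF4G1 (-0.092 to 0.14), EIF5A2 to EIF5A (-0.21 to 0.30) and PABPC4 to PABPC1 (-0.0031 to 0.13). The block left the ratio of EEF1A2 to EEF1A1 at 0.92 (exact p = 0.25, the smallest of 3 pairs). Why these values moved was not tested.

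Reported TOP starts with a tract fell from 75 to 62.5% when 6 pyrimidines were required. Recovered fragments carry the spread between libraries as well as counting error, and genes below 10 FPKM were not tested in the main fit.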
